A study of Mus musculus with 9 samples.

Results

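The genes described here are 35 markers of Langerhans cells and other macrophages and dendritic cells, read in RNA from whole mouse skin. They were chosen by name as genes known to mark these cells, with the MHC genes left out and with earlier results of these data known. The shares of the set given below beside those of all genes therefore describe it and are no test. All 35 are on the array, where 46 probe sets name one of them and no other gene, out of 20380 probe sets that name 1 gene. The values of a gene's probe sets were averaged, which gave the 35 markers among 12393 genes.

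The study's title concerns ectodermal defects in mice with an always-active Akt, a kinase downstream of growth factor receptors, and names weakened BMP signalling. Whole skin was taken at 30 days of age from mice of a mixed C57BL, DBA and FVB background, and each of 9 Affymetrix arrays received 1 pool of RNA. The pools came from the transgenic lines L60, L84 and LA (2 pools each) and from control mice named LC (3 pools). Which promoter or cell type drives the transgene, how the 3 lines differ and how many mice made up a pool are not given in the sources used here. The p-values below therefore measure only the spread between these pools.

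Langerhans cells are the resident phagocytes of the epidermis. They carry langerin, the product of Cd207, a lectin that forms their Birbeck granules, and they depend on the CSF1 receptor and its ligand interleukin 34 to persist in the skin. Dermal macrophages and dendritic cells lie below them and share many of their genes, among them the transcription factor PU.1 (Spi1), the Fc receptors and the lysosomal proteases. Several of the markers, such as Ptprc, Cd53 and Itgam, are also made by other leukocytes, so the set marks a compartment and not 1 cell type.

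To show the DNA next to which these genes begin, the 250 bases before the annotated start are printed for 4 of them, from RefSeq GRCm38.p6, 5′ to 3′ on the gene's strand. Cd207 and Pla2g2d are the markers that passed the test below, Mpeg1 came next to them in line LA, and C1qb is a C1q gene whose values parted the pools of a line. The windows lie at chr6:83677858-83678107 on the minus strand for Cd207, chr4:138775485-138775734 on the plus strand for Pla2g2d, chr19:12460520-12460769 on the plus strand for Mpeg1 and chr4:136886201-136886450 on the minus strand for C1qb. Capitals mark the letters GAGGAA, the core of the motif that PU.1 binds, or their reverse complement.
Cd207: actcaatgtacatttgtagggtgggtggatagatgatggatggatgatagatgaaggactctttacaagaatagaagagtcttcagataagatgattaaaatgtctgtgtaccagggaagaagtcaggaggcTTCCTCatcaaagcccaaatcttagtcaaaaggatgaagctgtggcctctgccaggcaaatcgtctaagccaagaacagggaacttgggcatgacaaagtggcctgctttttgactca
Pla2g2d: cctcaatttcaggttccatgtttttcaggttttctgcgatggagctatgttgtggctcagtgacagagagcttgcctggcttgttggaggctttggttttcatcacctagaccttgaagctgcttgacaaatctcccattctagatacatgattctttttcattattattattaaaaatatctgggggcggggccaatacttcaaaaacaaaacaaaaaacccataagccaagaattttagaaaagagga
Mpeg1: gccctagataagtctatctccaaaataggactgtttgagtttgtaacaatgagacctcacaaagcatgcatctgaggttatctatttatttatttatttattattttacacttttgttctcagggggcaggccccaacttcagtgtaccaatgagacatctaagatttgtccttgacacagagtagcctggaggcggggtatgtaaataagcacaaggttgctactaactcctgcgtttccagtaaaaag
C1qb: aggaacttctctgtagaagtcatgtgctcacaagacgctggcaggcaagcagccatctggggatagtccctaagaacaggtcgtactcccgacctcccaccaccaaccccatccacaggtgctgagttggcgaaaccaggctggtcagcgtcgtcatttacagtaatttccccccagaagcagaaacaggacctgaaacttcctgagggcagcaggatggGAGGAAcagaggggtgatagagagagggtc
A window was at hand for 24 of the 35 markers, in 27 windows. GAGGAA stood on either strand in 15 of these 27 windows (55.6%), against 7639 of all 32851 windows (23.3%). The windows that held it were those of 14 markers, Aif1, C1qb, C1qc, Cd207, Cd53, Cd68, Ctsk, Ctss, Fcgr1, Fcgr3, Itgam, Laptm5, Mrc1 and Ptprc. TGTGGT, the core of the motif that RUNX factors bind, stood in 7 of the 27 windows (25.9%), against 14% of all windows. Neither motif contains the other on either strand, and a match is a run of letters, not a bound site.

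The deposited values are scores. The values of every probe set average 0 over the 9 arrays with an SD of 1, so a score says how far an array lies from the gene's own mean, in SDs, and holds neither a level nor a fold. Differences between groups are therefore in SDs, levels of different genes cannot be compared, and whether a marker is near background cannot be read. Of facts of the whole series, the 18S ribosomal RNA probe sets parted the arrays: their mean score was 2.09 on L60 1, 0.339 on L84 1 and 1.13 on LC 1, and between -0.642 and -0.528 on the other 6 arrays, which include both LA arrays. Xist scored -1.06 to -0.822 on L60 1, L84 1, LA 1 and LC 1, and 0.077 to 1.48 on the other arrays.

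The marker set stood highest in line LA. Averaged over the 35 markers, the score was -0.661 and 0.575 on the L60 arrays, -0.692 and 0.463 on the L84 arrays and 1.20 and 0.671 on the LA arrays, against -0.372, -0.611 and -0.573 on the LC arrays. Both LA arrays lay above all others, and each of L60 and L84 had 1 array near or below the controls and 1 above them. LA had the highest group mean for 30 of the 35 markers, against 37.9% of all genes, L60 for 3 (Cd163, Fcgr1 and Lgmn), L84 for 2 (Itgax and Cybb) and LC for 0. In RNA from whole skin, more cells of a type and more RNA per cell cannot be told apart.

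**Figure D1:**
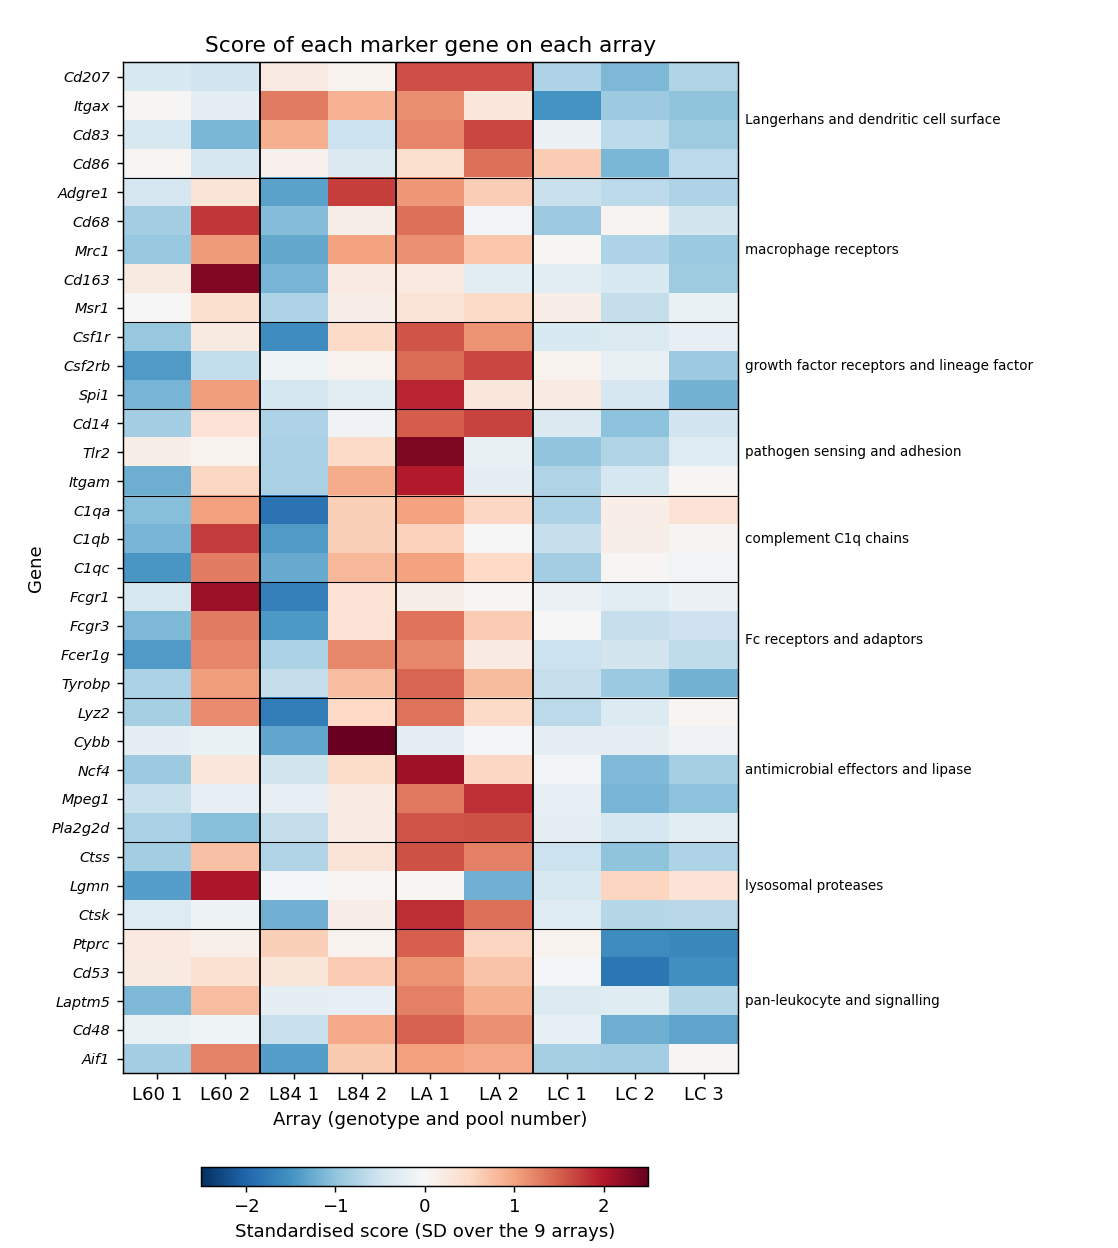
Score of each of the 35 markers (rows, grouped by role) on each of the 9 arrays (columns, L60, L84, LA and LC pools), in SDs over the 9 arrays, red above and blue below the gene's mean. Both LA columns are mostly red and the LC columns mostly blue, while L60 and L84 each have a blue column (array 1) and a redder column (array 2) for the C1q and Fc receptor rows.

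The first comparison asked which markers differ between line LA and the controls. Of the 35 markers, 34 had a higher mean in LA than in LC, with a median difference of 1.54 SDs (range -0.723 to 2.49), against a median of 0.247 SDs over all genes, of which 56.1% were higher. With each array's median over all genes set to 0, the median of the markers was 1.41 SDs. Cd207 and Pla2g2d rose. A rise or fall is called where limma's linear model without variance moderation gave a p under 0.05 after Benjamini-Hochberg adjustment over all 12393 genes. These are 2 of 35 markers, and 1.80% of all genes were called in this comparison. In 29 markers (82.9%) both LA arrays lay above all 3 LC arrays, against 27.8% of all genes. At an unadjusted p under 0.05 stood 15 markers (42.9%), all higher in LA, against 20.8% of all genes in either direction.

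Cd207 had the smallest p of all the markers in the F test over the 4 genotypes. It scored -0.379 and -0.476 on the L60 arrays, 0.198 and 0.085 on the L84 arrays and 1.61 and 1.60 on the LA arrays, against -0.777, -1.12 and -0.746 on the LC arrays. No 2 of the 4 groups overlapped, and LA stood highest, then L84, L60 and LC. The difference of LA from LC was 2.49 ± 0.127 SDs (SE of the fit, adjusted p = 0.00472, limma), that of L84 was 1.02 ± 0.127 (adjusted p = 0.0695) and that of L60 was 0.453 ± 0.127 (adjusted p = 0.862). These 3 comparisons share the LC arrays. The mean of the 3 lines was 1.32 ± 0.0987 SDs above LC (adjusted p = 0.0154, limma), which made Cd207 the 1 marker of 35 called there, against 0.637% of all genes. It was also the 1 marker called by the F test over the 4 genotypes (adjusted p = 0.0146, limma), against 0.734% of all genes, and 8 markers had an unadjusted F p under 0.05, against 14.8% of all genes. The call of LA against LC held without each single array in turn, and with the 18S or the Xist score as a covariate. It was lost under moderated variance, with LA and LC alone in the fit, with replicate number as a block, without L84 1 and LA 2 together and without the 3 arrays high in 18S, with a difference of 2.36 to 2.56 SDs over all 19 alternatives. Among the fits that leave out 1 array, the calls of the mean of the lines and of the F test were lost without L60 1, L60 2, LA 1, LA 2, LC 1 or LC 3, with a difference of 1.2 to 1.39 SDs for the mean of the lines over its alternatives. The median of the markers for the mean of the lines was 0.785 SDs above LC, against 0.135 over all genes, and it was 0.478 without L60 2 and 0.492 without L84 2.

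Pla2g2d encodes a secreted phospholipase A2 that lymphoid tissue dendritic cells and macrophages are known to make. It scored -0.805 and -1.06 on the L60 arrays, -0.586 and 0.204 on the L84 arrays and 1.56 and 1.59 on the LA arrays, against -0.233, -0.418 and -0.258 on the LC arrays. LA lay far above all other arrays, and L84 spanned LC. L60 lay below all LC arrays in the mean of the 2 probe sets, which differed from LC by -0.213 and -1.05 SDs in L60. In the first of them L60 1, at -0.324, lay above all LC arrays. The difference of LA from LC was 1.88 ± 0.247 SDs (adjusted p = 0.0416, limma). Its 2 probe sets differed by 2.18 and 1.59 SDs between LA and LC, and, adjusted over all probe sets, the first passed (adjusted p = 0.0442) and the second did not (adjusted p = 0.136). Of the 9 fits that leave out 1 array, the call held without L84 1 or L84 2, where Ctsk was called too, and was lost without any of the other 7, with 1.75 to 2.18 SDs over all alternatives. Without LC 1 the test called Cd53 in its place. The gap between the LA arrays, array 2 minus array 1, was 0.0303 for Pla2g2d and -0.00989 for Cd207, in a fit with 5 residual degrees of freedom. For Pla2g2d the small gap is that of a mean of 2 probe sets with opposite gaps. LA 1 and LA 2 scored 1.87 and 1.53 in the first, and 1.26 and 1.66 in the second.

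**Figure D2:**
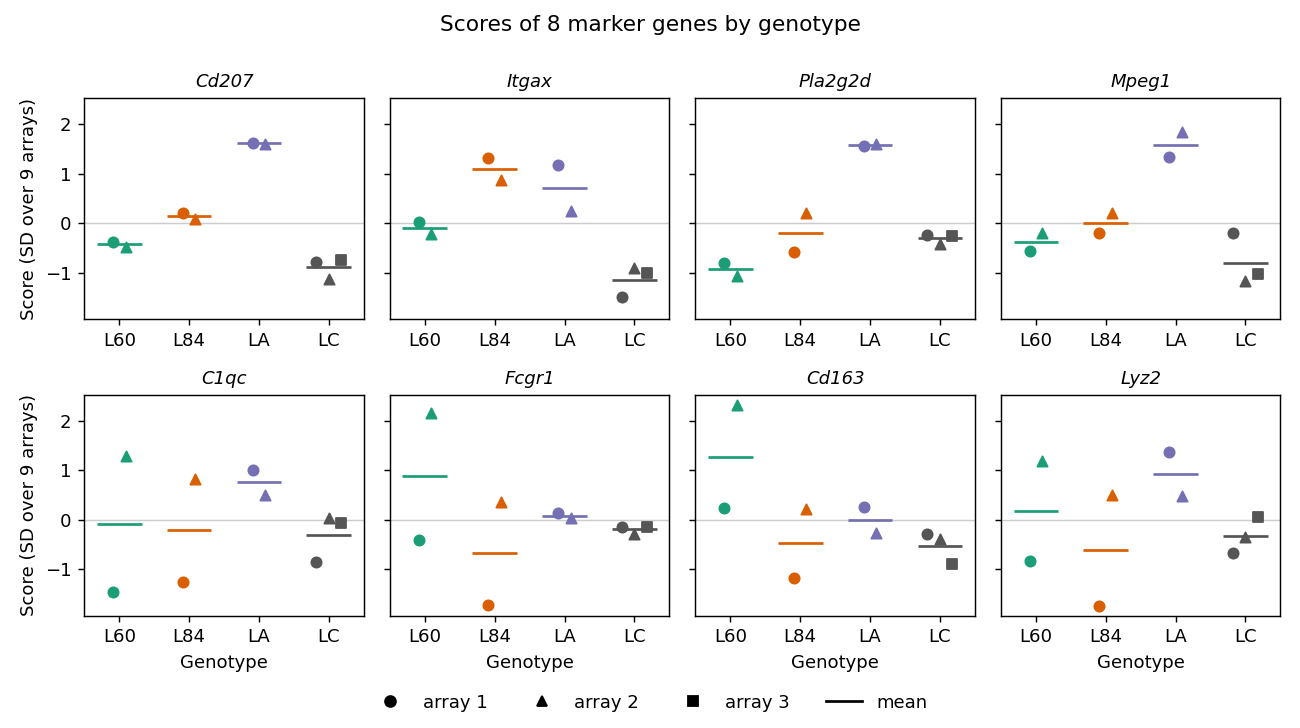
Scores (SD over the 9 arrays) of 8 markers by genotype, with 1 point per array (circle, triangle and square for arrays 1, 2 and 3) and a bar at the group mean. Cd207, Pla2g2d and Mpeg1 have both LA arrays above every other array, while C1qc, Fcgr1, Cd163 and Lyz2 have L60 and L84 arrays that lie far apart.

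Among the surface proteins of Langerhans and dendritic cells, LA stood above LC for all 4, with a median difference of 1.92 SDs. Itgax, the CD11c integrin chain of dendritic cells, was the marker of this set whose highest mean was in L84. It scored 0.03 and -0.215 on the L60 arrays, 1.31 and 0.863 on the L84 arrays and 1.17 and 0.255 on the LA arrays, against -1.50, -0.910 and -1 on the LC arrays. All 6 arrays of the lines lay above all LC arrays, and L84 and LA overlapped. Its difference from LC was 1.04 ± 0.352 SDs in L60, 2.22 ± 0.352 in L84 and 1.85 ± 0.352 in LA (adjusted p = 1, 0.118 and 0.0796, limma), so none passed.

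Cd83, which matured dendritic cells display, scored -0.396 and -1.15 on the L60 arrays, 0.879 and -0.530 on the L84 arrays and 1.21 and 1.66 on the LA arrays, against -0.145, -0.652 and -0.881 on the LC arrays. LA lay above all other arrays, and L60 and L84 overlapped LC. LA differed from LC by 2 ± 0.526 SDs (adjusted p = 0.136, limma). Cd86, a co-stimulatory ligand for T cells, differed by 1.28 ± 0.632 SDs, but its 2 probe sets disagreed, at 0.448 and 2.11 SDs.

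The macrophage surface receptors were less regular within the lines. Adgre1, the F4/80 antigen that defines mouse macrophages and is also made by Langerhans cells, scored -0.420 and 0.323 on the L60 arrays, -1.33 and 1.74 on the L84 arrays and 1.09 and 0.612 on the LA arrays, against -0.566, -0.663 and -0.778 on the LC arrays. LA and L60 lay above LC, while the L84 arrays held the lowest and the highest score. The difference of LA from LC was 1.52 ± 0.924 SDs (adjusted p = 0.392, limma).

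Cd68, a lysosomal membrane protein of macrophages, scored -0.850 and 1.77 on the L60 arrays, -1.08 and 0.140 on the L84 arrays and 1.38 and -0.074 on the LA arrays, against -0.902, 0.067 and -0.454 on the LC arrays. Each line overlapped LC, and LA differed from it by 1.08 ± 0.976 SDs (adjusted p = 0.542, limma). Mrc1, the mannose receptor of dermal macrophages, differed by 1.49 ± 0.94 SDs between LA and LC, and Msr1, a scavenger receptor, by 0.601 ± 0.373, with -0.205 to 1.2 SDs over its 4 probe sets. Cd163, the haemoglobin scavenger receptor, was highest in L60, where L60 2 scored 2.32 and L60 1 scored 0.227, against -0.289, -0.382 and -0.898 on the LC arrays. Its difference was 1.79 ± 0.763 SDs in L60 (adjusted p = 1, limma) and 0.511 ± 0.763 in LA. An array as far out as L60 2 here also compresses the scores of the other arrays, since a score is relative to the spread over all 9.

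For the growth factor receptors and the lineage factor PU.1, both LA arrays lay above all LC arrays in all 3 genes, against 27.8% of all genes. Csf1r, the receptor for CSF1 and interleukin 34, scored -0.943 and 0.232 on the L60 arrays, -1.54 and 0.487 on the L84 arrays and 1.56 and 1.13 on the LA arrays, against -0.382, -0.339 and -0.200 on the LC arrays. LA lay above all other arrays, and the arrays of L60 and of L84 stood on either side of LC. The difference of LA from LC was 1.65 ± 0.691 SDs (adjusted p = 0.262, limma), and its 3 probe sets gave 1.84, 1.70 and 1.41 SDs. Csf2rb, the shared beta chain of the receptors for GM-CSF, interleukin 3 and interleukin 5, scored -1.42 and -0.616 on the L60 arrays, -0.107 and 0.081 on the L84 arrays and 1.40 and 1.66 on the LA arrays, against 0.094, -0.189 and -0.908 on the LC arrays. LA lay above all other arrays and L60 at the low end, and LA differed from LC by 1.87 ± 0.389 SDs (adjusted p = 0.0931, limma). Spi1 differed by 1.56 ± 0.887 SDs, with LA arrays at 1.90 and 0.280 and LC 1 at 0.200.

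Cd14, the co-receptor for bacterial lipopolysaccharide, scored -0.854 and 0.352 on the L60 arrays, -0.769 and -0.079 on the L84 arrays and 1.51 and 1.69 on the LA arrays, against -0.352, -1.03 and -0.475 on the LC arrays. LA lay above all other arrays, at 2.22 ± 0.454 SDs over LC (adjusted p = 0.0907, limma). Itgam, the CD11b integrin chain of monocytes, macrophages and neutrophils, scored -1.23 and 0.520 on the L60 arrays, -0.820 and 0.924 on the L84 arrays and 1.98 and -0.220 on the LA arrays, against -0.751, -0.427 and 0.025 on the LC arrays. Every line overlapped LC, and LA differed from it by 1.26 ± 0.98 SDs (adjusted p = 0.485, limma). Tlr2, a receptor for bacterial lipopeptides, had 1 high LA array, at 2.33, and the other at -0.182.

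The 3 chains of complement C1q, which macrophages and dendritic cells make, are neighbours on chromosome 4. C1qa scored -1.06 and 1.04 on the L60 arrays, -1.84 and 0.595 on the L84 arrays and 1.01 and 0.522 on the LA arrays, against -0.785, 0.172 and 0.353 on the LC arrays. C1qb scored -1.17 and 1.75 on the L60 arrays, -1.42 and 0.604 on the L84 arrays and 0.571 and 0.017 on the LA arrays, against -0.567, 0.140 and 0.073 on the LC arrays. C1qc scored -1.45 and 1.28 on the L60 arrays, -1.25 and 0.824 on the L84 arrays and 1.01 and 0.501 on the LA arrays, against -0.862, 0.029 and -0.071 on the LC arrays. In all 3 chains the first arrays of L60 and L84 were the 2 lowest of the 9, and L60 2 was the highest. LA differed from LC by 0.852 ± 1, 0.412 ± 1.06 and 1.06 ± 1.04 SDs for C1qa, C1qb and C1qc, and none passed (adjusted p = 0.635, 0.839 and 0.574, limma).

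The Fc receptors bind antibody and signal through the Fcer1g chain, and Tyrobp is a related adaptor of other myeloid receptors. In all 4 of these genes both LA arrays lay above all LC arrays, against 27.8% of all genes. The difference ranged from 0.269 ± 0.953 SDs for Fcgr1, the high-affinity receptor for IgG, to 2.01 ± 0.712 for Tyrobp. Fcgr3 differed by 1.36 ± 0.916 SDs and Fcer1g by 1.25 ± 1. None passed (adjusted p = 0.886 for Fcgr1 and 0.211 for Tyrobp, limma). Fcgr1 reached 2.15 on L60 2 and -1.71 on L84 1, and its LC and LA arrays all lay between -0.285 and 0.141.

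Of the antimicrobial genes, Mpeg1, a pore-forming protein of macrophages, came nearest to a call in LA after Cd207 and Pla2g2d. It scored -0.556 and -0.208 on the L60 arrays, -0.208 and 0.202 on the L84 arrays and 1.33 and 1.84 on the LA arrays, against -0.208, -1.16 and -1.02 on the LC arrays. LA lay above all other arrays, and L60 and L84 overlapped LC. The difference of LA from LC was 2.38 ± 0.366 SDs (adjusted p = 0.0582, limma). Ncf4, a subunit of the phagocyte NADPH oxidase, differed by 1.99 ± 0.706 SDs, and Lyz2, the lysozyme of myeloid cells, by 1.24 ± 0.928. Cybb, the membrane subunit of the same oxidase, differed by 0.0577 ± 1.09 SDs, with 1 array, L84 2, at 2.47 and L84 1 at -1.29. The other 7 arrays of Cybb stood between -0.222 and -0.020, and 4 of them were tied at the lower value.

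The 3 lysosomal proteases, which cut antigens and matrix, did not run together. Ctsk, cathepsin K, scored -0.327 and -0.131 on the L60 arrays, -1.21 and 0.162 on the L84 arrays and 1.84 and 1.38 on the LA arrays, against -0.327, -0.704 and -0.689 on the LC arrays. LA lay above all other arrays, at 2.19 ± 0.44 SDs over LC (adjusted p = 0.0876, limma). Ctss, cathepsin S, which trims the invariant chain in antigen-presenting cells, differed by 2.20 ± 0.581 SDs (adjusted p = 0.137, limma). Lgmn, legumain, was the 1 marker with a lower mean in LA than in LC, at -0.723 ± 1.09 SDs (adjusted p = 0.717, limma). Its 2 L60 arrays, at 2.02 and -1.39, were the highest and the lowest of all.

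In 5 of 5 pan-leukocyte genes both LA arrays lay above all LC arrays, against 27.8% of all genes. Ptprc, the CD45 phosphatase of all white blood cells, scored 0.237 and 0.136 on the L60 arrays, 0.598 and 0.096 on the L84 arrays and 1.49 and 0.541 on the LA arrays, against 0.083, -1.57 and -1.61 on the LC arrays. Cd53, a tetraspanin of leukocytes, scored 0.225 and 0.387 on the L60 arrays, 0.297 and 0.642 on the L84 arrays and 1.11 and 0.705 on the LA arrays, against -0.046, -1.80 and -1.53 on the LC arrays. Cd48, a ligand of the SLAM family, scored -0.159 and -0.099 on the L60 arrays, -0.566 and 0.939 on the L84 arrays and 1.48 and 1.14 on the LA arrays, against -0.209, -1.22 and -1.31 on the LC arrays. In all 3, LC 1 stood well above LC 2 and LC 3, and close to the L60 arrays. LA differed from LC by 2.05 ± 0.638 SDs for Ptprc, 2.03 ± 0.568 for Cd53 and 2.23 ± 0.569 for Cd48, and none passed (adjusted p = 0.174, 0.149 and 0.13, limma). Laptm5, a lysosomal membrane protein of blood cells, differed by 1.52 ± 0.574 SDs, and Aif1, the actin-bundling protein IBA1 of macrophages, by 1.54 ± 0.895.

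**Figure D3:**
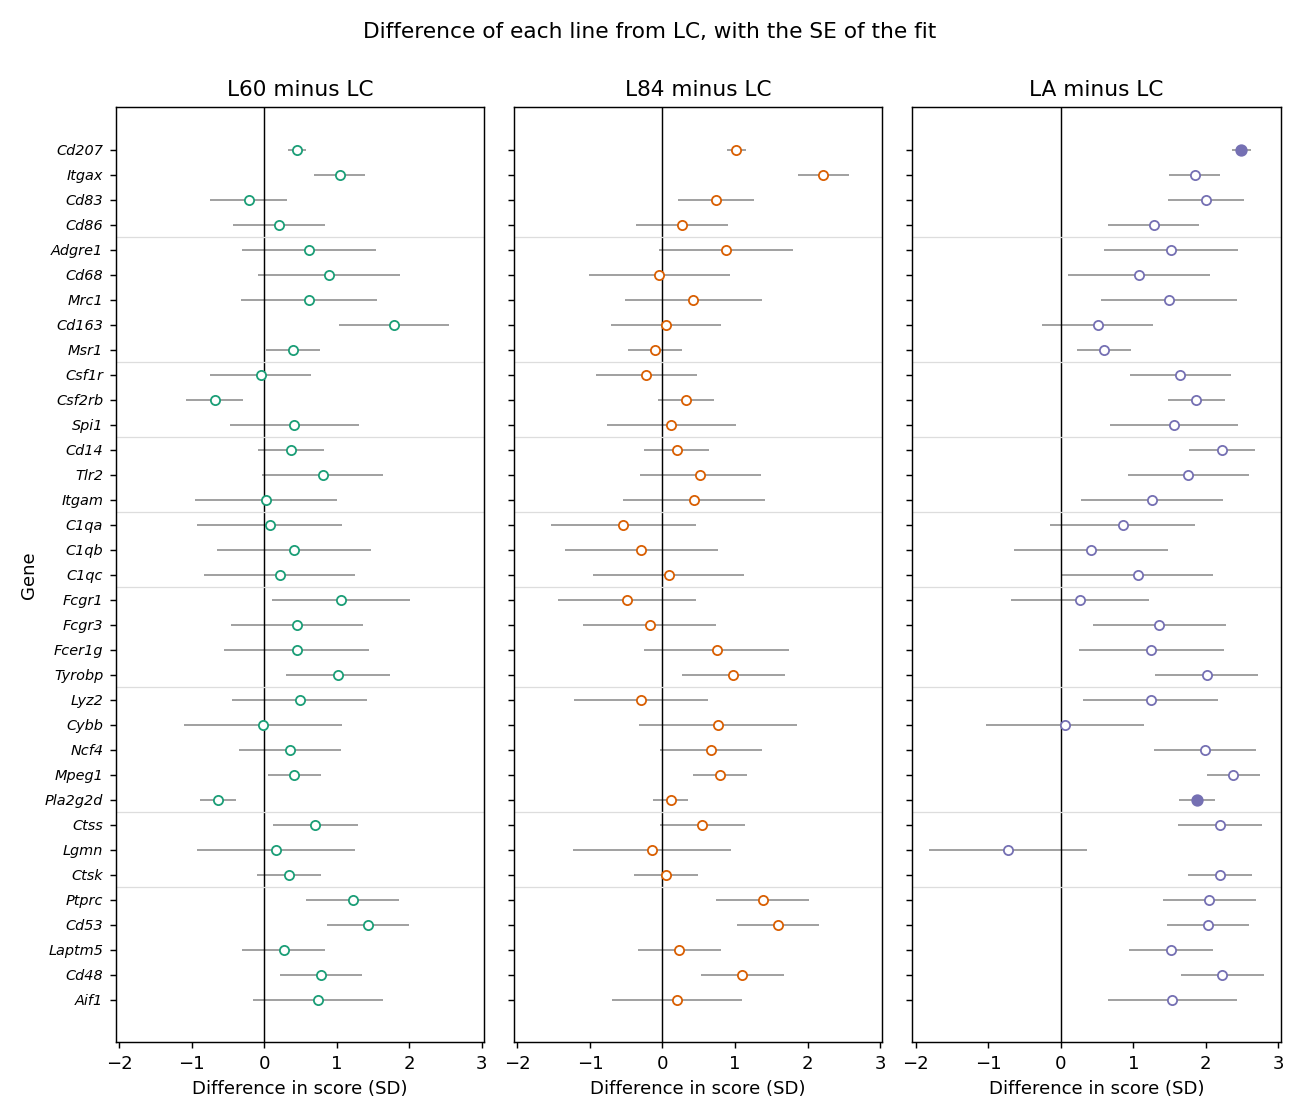
Difference of each line from LC for each of the 35 markers (points, in SDs) with the SE of the fit (bars), for L60, L84 and LA from left to right and genes grouped by role. Filled points passed the test (Cd207 and Pla2g2d in LA), and 34 of 35 points lie right of 0 in LA, against 30 in L60 and 26 in L84.

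No marker was called in the other lines. In L60 30 markers were higher than in LC and 5 lower, with a median difference of 0.415 SDs, against 0.0777 over all genes, and 0 of 35 markers and 0% of all genes were called. At an unadjusted p under 0.05 stood 2 markers (5.71%), Cd207 and Itgax, near the 4.72% of all genes, and moderated variance gave 0 calls as well. In 8 markers (22.9%) both L60 arrays lay above LC, against 14.4% of all genes. These were Cd207, Itgax, Adgre1, Cd163, Tlr2, Ptprc, Cd53 and Cd48. The median depended on the array, at -0.236 without L60 2 and 1.12 without L60 1.

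In L84 26 markers were higher than in LC and 9 lower, with a median difference of 0.265 SDs, against 0.00308 over all genes. The test called 0 of 35 markers and 0.565% of all genes, and moderated variance called 0. At an unadjusted p under 0.05 stood 3 markers (8.57%), Cd207, Itgax and Cd53, against 12.2% of all genes. In 5 markers (14.3%) both L84 arrays lay above LC, a share close to the 13.8% of all genes. These were Cd207, Itgax, Ptprc, Cd53 and Laptm5. Laptm5 did so in the mean of its 3 probe sets, which differed from LC by -0.604, 0.384 and 0.921 SDs in L84. Without L84 2 the median was -0.25 SDs, and without L84 1 it was 0.825, and in each of these fits the test called 1 marker, Cybb, whose other 7 arrays lie close together. With array medians set to 0, it called Cd207 instead. All 6 arrays of the lines lay above all LC arrays for 4 markers, Cd207, Itgax, Ptprc and Cd53 (11.4%), against 3.70% of all genes.

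The lines were also set against each other. Between LA and L60, Cd207 was 2.04 ± 0.14 SDs higher and Pla2g2d 2.51 ± 0.271 SDs higher in LA (adjusted p = 0.0172 and 0.042, limma), which made 2 of 35 markers called, against 0.629% of all genes. Csf2rb had the largest difference of the 35, at 2.55 ± 0.426 SDs, and did not pass (adjusted p = 0.102, limma). The median difference of the markers was 0.906 SDs, against 0.164 over all genes, and LA lay above L60 without overlap for 17 markers (48.6%), against 26.8% of all genes. Without L60 1 that median was 0.357 SDs, without L60 2 it was 1.84 and without LA 1 it was 0.59. The test called neither gene without L60 1, L60 2, LA 1, LA 2, LC 1 or LC 3, and Cd207 alone without LC 2.

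Between LA and L84 the test called 0 of 35 markers, against 0.0161% of all genes, and moderated variance called 0. At an unadjusted p under 0.05 stood 7 markers (20%), against 10.6% of all genes. The largest of these 7 by size was Ctsk, at 2.14 ± 0.481 SDs, and Cd207 differed by 1.47 ± 0.14 (adjusted p = 0.312 and 0.152, limma). LA lay above L84 without overlap for 19 markers (54.3%), against 20.0% of all genes, with a median difference of 1.13 SDs, against 0.117 over all genes. Without L84 1 that median was 0.42 SDs, without L84 2 it was 1.74, and without L84 2 the test called Cybb and Pla2g2d. Between L84 and L60 the median difference was -0.126 SDs, against -0.0753 over all genes. There 0 of 35 markers and 0.113% of all genes were called, and moderated variance called 0. At an unadjusted p under 0.05 stood 3 markers (8.57%), near the 8.03% of all genes. Without L60 2 that median was 0.57 SDs, without L60 1 -0.76, without L84 2 -0.698 and without L84 1 0.391, and without L84 1 the test called Cybb. Both LA arrays lay above all 7 other arrays for 13 markers (37.1%), against 9.97% of all genes. These 13 were Cd207, Cd83, Csf1r, Csf2rb, Cd14, Ncf4, Mpeg1, Pla2g2d, Ctss, Ctsk, Cd53, Laptm5 and Cd48.

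The 2 pools of a line differed widely in these markers, and not all roles did so. In L60, array 2 scored above array 1 for 28 of 35 markers, with a median gap of 1.21 SDs, and 57.1% of the markers scored more than 1 SD higher on array 2, against 17% of all genes. In L84, array 2 scored above array 1 for 30 of 35, with a median gap of 1.3 SDs, and again 57.1% scored more than 1 SD higher on array 2, against 26.3% of all genes. In LA, array 2 scored above array 1 for 8 of 35, with a median gap of -0.463 SDs. There 7 markers (20%) scored more than 1 SD lower on array 2, namely Tlr2, Itgam, Spi1, Ncf4, Cd68, Lgmn and Fcer1g, against 24.4% of all genes, and 0 scored more than 1 SD higher, against 20.7% of all genes. The widest of these gaps were -2.51 SDs for Tlr2 and -2.20 SDs for Itgam. Array 2 was more than 1 SD higher in both L60 and L84 for 15 markers (42.9%), against 5.1% of all genes.

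By role, the 3 C1q chains and the 4 Fc receptors and adaptors all had a gap over 1 SD in both lines, of 1.85 to 2.92 SDs in L60 and 1.36 to 2.44 SDs in L84. Cd68, Mrc1 and Cd163 among the macrophage receptors, Lyz2, Aif1, Csf1r, Itgam and Ctss made up the rest of the 15. The 4 surface proteins of Langerhans and dendritic cells had gaps below 0 in both lines, and Ptprc did likewise. These were 5 of 35 markers, against 3421 of all 12393 genes. The gaps in L60 and L84 were -0.0977 and -0.113 SDs for Cd207 and -0.244 and -0.445 for Itgax. They were wider for Cd86, at -0.467 and -0.478 SDs, and for Cd83, at -0.757 and -1.41. For Cd86 these gaps are those of a mean of 2 probe sets with opposite gaps. The probe set that was 2.11 SDs higher in LA than in LC rose from array 1 to array 2. It scored -0.823 and -0.463 on the L60 arrays, and -0.569 and 0.543 on the L84 arrays. The other fell, from 0.917 to -0.377 in L60 and from 0.8 to -1.269 in L84. Lgmn had the widest gap in L60, at 3.41 SDs, and Cybb the widest in L84, at 3.76 SDs.

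**Figure D4:**
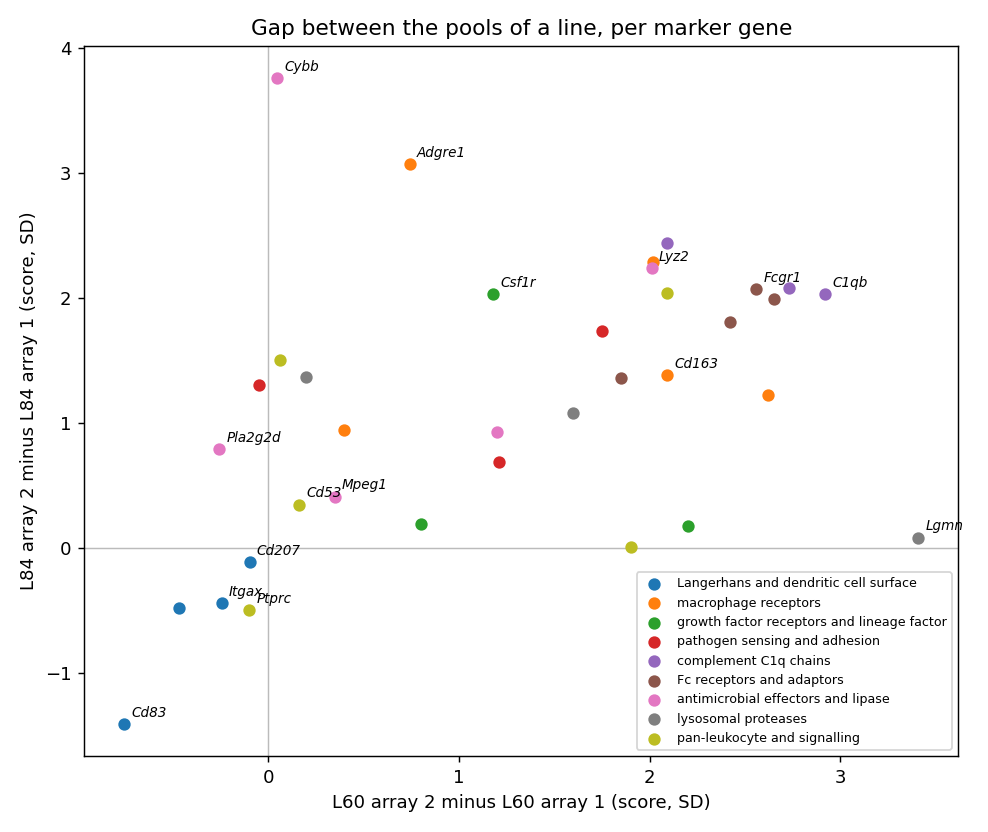
Gap between the pools of a line for each of the 35 markers, as array 2 minus array 1 in L60 (horizontal axis) and in L84 (vertical axis), in SDs of the score and coloured by role. The C1q chains and Fc receptors and adaptors lie at the upper right, over 1 SD in both lines, and the 4 Langerhans and dendritic surface genes lie at the lower left, below 0 in both. Cd86 is placed by the mean of 2 probe sets with opposite gaps.

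The arrays that were low for these markers, L60 1 and L84 1, were also the arrays of their lines with a high 18S score. These arrays and LC 1, also high in 18S, were low in Xist, at -0.900, -1.06 and -0.915. On L60 2, L84 2, LC 2 and LC 3 Xist scored 0.604 to 1.48. In L60, L84 and LC a split by 18S and a split by Xist therefore cannot be told apart. Within the arrays high in 18S, the median difference of the markers from LC 1 was -0.273 SDs for L60 1 (9 of 35 higher) and -0.391 for L84 1 (8 of 35 higher). Within the arrays low in 18S, the median difference from LC 2 and LC 3 was 1.26 SDs for L60 2 (31 of 35 higher), 0.859 for L84 2 (34 of 35 higher) and 1.61 for the 2 LA arrays (34 of 35 higher). Cd207 differed from LC by 0.398 and 0.456 SDs in L60, by 0.975 and 1.02 in L84 and, among the arrays low in 18S alone, by 2.54 in LA. The C1q chains had medians of -0.59 and 1.3 SDs in L60 and of -0.854 and 0.498 in L84, in the arrays high and low in 18S in that order, and of 0.503 SDs in LA. In L60 and L84 the Cd207 difference was of like size on both sides of the 18S split, and the C1q difference turned its sign. Each side held 1 array of a line, and on the high side LC 1 was the only control. LA has no array high in 18S, so its Cd207 difference could not be set on both sides. LC 1, high in 18S, had a marker mean of -0.372, above the -0.611 and -0.573 of LC 2 and LC 3. The part of 18S, of Xist or of the RNA preparation in these values was not tested further.

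Most of the lists of other cell markers stood higher in LA than in LC too, and adipocyte, melanocyte and hair shaft genes stood lower. Beside the counts that follow, 56.1% of all genes were higher in LA, with a median difference of 0.247 SDs. Of 54 further macrophage and dendritic cell genes on the array, 44 were higher in LA than in LC and 10 lower, with a median difference of 1.37 SDs, and 0 passed the test, with 18 (33.3%) at an unadjusted p under 0.05, against 20.8% of all genes, and 0 calls under moderated variance. In L60 and L84 their median differences were 0.25 and 0.126 SDs. T, B and natural killer cell markers were higher in LA for 19 of 19, with a median of 1.35 SDs. Their mean scores were -0.218 and -0.133 on the L60 arrays, -0.237 and 0.410 on the L84 arrays and 0.744 and 0.937 on the LA arrays, against -0.386, -0.677 and -0.440 on the LC arrays. The mean of the lymphocyte list thus lay above LC on both LA arrays, and for 13 of its 19 genes both LA arrays did, against 27.8% of all genes. Between the L60 pools, 2 of its genes scored more than 1 SD higher on array 2 and 4 more than 1 SD lower. All genes did so in 17% and 15.3%. Between the L84 pools, 9 of its 19 genes scored more than 1 SD higher on array 2 and 3 more than 1 SD lower. All genes did so there in 26.3% and 32.4%.

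Fibroblast and matrix markers were higher in LA for 13 of 13, with a median of 0.953 SDs. Their mean scores were -0.298 and 0.497 on the L60 arrays, -1.56 and 0.806 on the L84 arrays and 0.889 and 0.600 on the LA arrays, against -0.0117, -0.477 and -0.446 on the LC arrays. The mean of the fibroblast list was lowest on L84 1 and lay within the LC range on L60 1. Neutrophil and monocyte genes were higher in LA for 11 of 13 (median 1.28 SDs), with mean scores of -0.248 and -0.127 on the L60 arrays, -0.860 and 0.352 on the L84 arrays and 0.157 and 1.22 on the LA arrays, against -0.327, -0.143 and -0.0225 on the LC arrays. None of these 3 lists had a called member in LA. Keratinocyte markers were higher in LA for 10 of 12 (median 1.59 SDs), against 56.1% of all genes. Krt5, Krt15 and Krt10 rose, 3 of 12, where 1.80% of all genes were called. Mast cell markers were higher in LA for 9 of 11 (median 1.1 SDs), skeletal muscle markers for 8 of 9 (median 0.999), endothelial markers for 6 of 9 (median 0.736) and osteoclast markers for 3 of 4 (median 0.572). Adipocyte markers were lower for 4 of 6 (median -0.975 SDs) and melanocyte markers for 5 of 5 (median -2 SDs). Hair shaft keratins fell in LA in 9 of 9 (median -2.07 SDs), against 1.80% of all genes called in either direction. Which of these markers are absent cannot be read from a score, and their part in the marker values was not tested.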

How the data were processed

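Total RNA from whole skin was hybridised to 9 Affymetrix arrays, 1 pool each. The authors deposited a score per probe set, and RMA is named, with no version, in the submitters' processing notes. Deposited rows average 0 (largest row mean 1.9e-07) with an SD of 1 (largest distance 7.5e-08) and run from -2.66 to 2.67. The scale before standardising is not stated. Values were tied in 44.3% of probe sets, and a tie within a group narrows the spread its test uses.

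Of 22690 probe sets, 64 were controls, 691 named several genes and 1555 none. The other 20380 were averaged per gene. For all 12393 genes, limma 3.58.1 (R 4.3.3) fitted the group means over the 9 arrays, with 5 residual degrees of freedom. Contrasts were tested without variance moderation, which leaves the p unchanged by rescaling a gene. Calls were made at a p under 0.05, adjusted over all genes by Benjamini-Hochberg. The scripts were tested on simulated data. The number of arrays limits the precision.

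The 35 markers, the other gene lists and the tests were chosen with earlier results of these data known, so they are described by counts and medians and get no test of their own. Values on every array were given for Cd207, Adgre1, Csf1r, Cd68, Itgam, Ptprc, the C1q chains, every called marker and the 10 markers with the smallest F test p, and any other marker could be named. Of other lists, up to 4 called genes per list and contrast were to be named. Alternatives were leaving out each array, LC 1, L60 1 and L84 1 together, or L84 1 and LA 2 together (the widest scores), moderated variance, only the 2 groups compared, replicate number as a block, array weights, the 18S score as a covariate, array medians at 0, 1 probe set per gene and every probe set on its own. The Xist covariate was chosen after seeing the data. Left-out fits used scores that had been standardised with all 9 arrays. Promoter windows and gene names came from RefSeq GRCm38.p6, in which all 35 symbols were found.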

Additional observations from a re-analysis of the deposited data

Results flagged for a closer look

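In 2 markers the difference of LA from LC was larger than that of L60 from LC, by limma's test of the difference between these lines. Cd207 was 2.04 SDs higher in LA than in L60 (adjusted p = 0.0172, limma), with both LA arrays above both L60 arrays. Pla2g2d was 2.51 SDs higher in LA than in L60 (adjusted p = 0.042, limma), again with no overlap. Over 19 alternatives the Cd207 call held in 5, at 1.97 to 2.12 SDs, and the Pla2g2d call in 3, at 2.38 to 2.64 SDs. No group of this series has more than 3 arrays, so no group was searched for an outlying array.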

How the results depend on the processing

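Calls, and the medians of L60 and L84 against LC, moved with the processing, and the cause was not tested. With the main setting 0 markers were called for L60 against LC, L84 against LC, LA against L84 and L84 against L60, 1 each for the F test and for the mean of the 3 lines, and 2 for LA against LC and LA against L60. Moderated variance called 0 markers and 0 genes in every comparison, against 223 genes for LA against LC in the main fit. With replicate number as a block, 0 markers were called in every comparison, and 1 gene each for LA against LC, LA against L60, the mean of the lines and the F test. The numbers give 2 pairs per comparison and do not pair the pools by any label (correlation of deviations -0.0833 to 0.345). Without the 3 arrays high in 18S, 0 markers were called in every comparison, and the medians were 1.26 for L60 against LC, 0.859 for L84 against LC and 0.42 for LA against L84.

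For LA against LC, Cd207 was the 1 marker called with the 18S covariate (113 genes), the Xist covariate or array medians at 0, and Pla2g2d with only these 2 groups (38 genes). Without L84 1 and LA 2, 0 were called (45 genes). Array weights called 3, with Ctsk the third. For LA against L60, 0 were called with either covariate (5 genes with 18S and 18 with Xist, against 78), with only these 2 groups or without L84 1 and LA 2, and 1 with array medians at 0, array weights or either probe set setting. The F test called 0 with either covariate (11 and 19 genes, against 91) or array weights. The mean of the lines called 2, Cd207 and Itgax, with array weights (235 genes, against 79) and 0 without L84 1 and LA 2. Without L84 1 and LA 2, 1 marker, Cybb, was called for L84 against LC, LA against L84, L84 against L60 and the F test, and array medians at 0 called 1, Cd207, for L84 against LC.

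Leaving out 1 array gave 0 to 3 called markers for the F test, 1 to 3 for LA against LC, 0 to 2 for LA against L60, LA against L84 and the mean of the lines, and 0 to 1 for L84 against LC and L84 against L60. The medians then ran from -0.236 to 1.12 for L60 against LC, -0.25 to 0.825 for L84 against LC, 1.28 to 1.77 for LA against LC, 0.478 to 1.02 for the mean of the lines, -0.76 to 0.57 for L84 against L60, 0.357 to 1.84 for LA against L60 and 0.42 to 1.74 for LA against L84. The count of all genes called moved too, so the counts of markers are not on a like footing between these fits. Without LC 1, LC 2 or LC 3 the F test called 10, 6 and 8 of all genes, against 91 in the main fit. Over 19 alternatives 32 of 35 markers kept their sign for LA against LC, with C1qb, Cybb and Fcgr1 the exceptions, against 14 for L60 and 11 for L84. Cybb was called for L84 against LC both at 2.65 without L84 1 and at -1.11 without L84 2 (0.767 in the main fit). Signal over background, which would limit dim probe sets, is not in a score. A filter on dim genes was therefore not run.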

Other observations

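The list of ligands and recruiting factors of these cells held Csf1, Il34, Csf2, Csf3, Ccl2, Cx3cl1 and Tgfb1. It also held Epcam, which is neither, and all were on the array. Of these 8 genes, 8 had a higher mean in LA than in LC, against 56.1% of all genes. Their median difference was 1.09 SDs, with a range of 0.259 to 1.83. The test (limma) called 0 of them, with 1 (12.5%) at an unadjusted p under 0.05, against 20.8% of all genes. Moderated variance called 0 as well. Il34, the epidermal ligand of the CSF1 receptor, scored -0.689 and 0.504 on the L60 arrays, 1.18 and 0.148 on the L84 arrays and 1.59 and 0.148 on the LA arrays, against -1.49, -0.941 and -0.451 on the LC arrays. Each L84 and LA array lay above LC, and L60 1 lay within it. The difference was 0.868 SDs in L60, 1.62 in L84 and 1.83 in LA (adjusted p = 1, 0.445 and 0.229, limma). Csf1, the other ligand, differed by 1.22 SDs in LA, and Tgfb1, which Langerhans cells need, by 0.968.

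Of the further macrophage and dendritic cell genes, several were chosen for mention after their values were seen. Ly75, the DEC-205 receptor of Langerhans and dendritic cells, stood furthest above LC in LA, at 2.37 SDs, and Flt3, the receptor for the dendritic cell growth factor FLT3 ligand, differed by 2.16 SDs. Neither passed (adjusted p = 0.0752 and 0.0821, limma). Runx3, a transcription factor that Langerhans cells need, differed by -0.529 SDs in LA. Gpnmb, made by macrophages and also by pigment cells, stood lowest of the 10 genes of the list that were lower in LA, at -1.72 SDs (adjusted p = 0.12, limma). The melanocyte markers Tyrp1, Dct and Pmel fell in LA, where 1.80% of all genes were called. Whether pigment cells had a part in the Gpnmb value was not tested.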
